A study of Mus musculus with 4 samples.

Results

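Peaks of H3K9me3, trimethylated lysine 9 of histone H3, were examined where they lay in genes that do not encode a protein. They came from 2 lists of broad peaks, 1 from control and 1 from Setdb1-deleted mouse muscle stem cells. A peak was included when its midpoint, on chromosomes 1 to 19, lay inside a noncoding gene or pseudogene of the RefSeq annotation of GRCm38.p6 (the chromosomes of mm10) and inside no protein-coding gene. The control list held 8516 such peaks among 103258 on these chromosomes (8.25%, 95% Wilson interval 8.08 to 8.42%) and 105864 in all. The deleted list held 9146 among 108595 (8.42%, 8.26 to 8.59%) and 113688 in all. These intervals, and those below, cover counting error only. Of the annotated genes, 26377 on these chromosomes were noncoding: 12408 long noncoding RNA (lncRNA) genes, 9320 pseudogenes and 4649 others.

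Both cultures were primary muscle stem cells from muscle with both Setdb1 copies flanked by lox sites and an inducible Cre recombinase driven by Pax7, a gene of muscle stem cells. The genotype is spelled Setdb1lox/lox;Pax7GakaCreERT2 for the control and with a different closing number for the deleted culture. The control received ethanol and the other culture 4-hydroxytamoxifen, which activates the Cre, for 72 h. Native chromatin, not crosslinked, was digested by micrococcal nuclease. With 1 H3K9me3 library per condition, every difference below compares 2 libraries and has no replicate check, and no p-value was computed. Sequencing depth is unknown, so depth and the amount of the mark cannot be told apart.

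H3K9me3 is found on silenced chromatin, over repeats, clustered gene families and genes of other cell types, and SETDB1 is an enzyme that writes it. LncRNA genes are transcribed into long RNAs without a known protein product, and some act on neighbouring genes. Pseudogenes are copies of genes that have lost coding capacity, and many sit inside the clusters of the families they came from, such as olfactory and vomeronasal receptors. The remaining class here held the immunoglobulin and T cell receptor loci, each annotated as 1 long gene, together with miscellaneous RNAs and small RNAs.

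The start regions of lncRNA genes under peaks held slightly fewer of the dinucleotide CG, the usual target of DNA methylation. Outside coding genes and chromosome 6 the median was 2, against 3 in start regions without a peak. Windows of 300 bases, from 250 before to 50 after the annotated start, are shown for 4 lncRNA genes, 1 for each pattern of peaks and 1 with a name other than a predicted one. All are from RefSeq (GRCm38.p6), written 5′ to 3′ on the gene's strand, with every CG in capitals. Gm12586 (chr11:121855318-121855617, plus strand) lay wholly under a peak in both lists. Gm40900 (chr12:115703580-115703879, plus strand), inside the immunoglobulin heavy chain locus, was under a control peak only. Gm40003 (chr2:170673789-170674088, minus strand) was under a deleted-list peak only. BC051076 (chr5:87957372-87957671, plus strand) was under a peak in both lists.
Gm12586: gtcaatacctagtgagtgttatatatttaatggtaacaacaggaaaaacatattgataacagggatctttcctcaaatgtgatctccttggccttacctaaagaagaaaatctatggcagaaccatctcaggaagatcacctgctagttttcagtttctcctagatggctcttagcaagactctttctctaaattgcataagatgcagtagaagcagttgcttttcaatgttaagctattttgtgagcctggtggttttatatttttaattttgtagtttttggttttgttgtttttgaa
Gm40900: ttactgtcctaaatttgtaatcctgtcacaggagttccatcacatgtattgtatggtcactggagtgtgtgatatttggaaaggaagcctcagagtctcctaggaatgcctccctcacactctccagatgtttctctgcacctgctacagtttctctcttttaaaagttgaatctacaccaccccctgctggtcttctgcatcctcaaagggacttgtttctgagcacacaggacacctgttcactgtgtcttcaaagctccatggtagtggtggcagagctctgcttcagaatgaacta
Gm40003: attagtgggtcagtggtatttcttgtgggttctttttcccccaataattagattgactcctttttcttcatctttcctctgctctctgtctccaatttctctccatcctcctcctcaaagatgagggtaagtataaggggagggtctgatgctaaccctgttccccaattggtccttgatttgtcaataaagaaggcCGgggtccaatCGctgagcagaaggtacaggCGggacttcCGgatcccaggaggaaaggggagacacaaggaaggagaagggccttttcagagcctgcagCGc
BC051076: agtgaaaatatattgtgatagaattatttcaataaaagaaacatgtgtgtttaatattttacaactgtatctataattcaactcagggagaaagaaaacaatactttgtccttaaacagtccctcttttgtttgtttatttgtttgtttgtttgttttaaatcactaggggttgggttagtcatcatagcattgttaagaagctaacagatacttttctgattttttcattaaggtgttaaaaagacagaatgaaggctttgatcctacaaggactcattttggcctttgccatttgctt
The windows of Gm12586, Gm40900 and BC051076 held no CG, and that of Gm40003 held 5. Only 20.9% of all such windows under a peak held none, so these 4 are not typical. Windows under peaks that held some CG were also found. Their GC contents were 34.7%, 46.0%, 30.3% and 49.3% for Gm12586, Gm40900, BC051076 and Gm40003. The Gm12586 peak was the strongest of the 4 by the authors' −log10 q, at 4.04 (control) and 4.15 (deleted list). Over the whole gene, peaks covered Gm40003 at 0% and 35.9%, Gm40900 at 43.0% and 30.5%, and BC051076 at 13.5% and 59.0%, in the control and deleted list respectively.

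Most of the peaks were in lncRNA genes. Outside chromosome 6, which is given apart, the control list held 5703 peaks in lncRNA genes, 1076 in pseudogenes and 525 in other noncoding genes. The deleted list held 6383, 1249 and 586. The noncoding classes made up 7.83% (7.66 to 8.01%) of control peaks and 8.11% (7.94 to 8.28%) of deleted-list peaks there, while noncoding genes outside coding genes span 8.24% of those chromosomes. By number, then, these peaks were about as frequent as the length of the genes would give. Median widths were 833 and 820 bp in lncRNA genes, 968 and 999 bp in pseudogenes, and 958 and 1049 bp in the other class, against 899 and 867 bp over all peaks of each list. The authors' fold enrichment had a median of 2.57 in noncoding genes and 2.57 over all control peaks, and of 2.60 and 2.59 in the deleted list.

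Muscle genes and the targeted gene were checked in both lists. Pax7, Myod1, Myf5 and Myog, genes of muscle stem cells and their differentiation, had no peak base in either. Setdb1 itself had 388 bp under a control peak and none under a deleted-list peak, which does not check the deletion, since peaks are no measure of the gene's copies.

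The peaks were gathered in few genes. Outside chromosome 6, 1902 of 11674 lncRNA genes held a control peak midpoint and 2063 a deleted-list one. For pseudogenes the counts were 508 and 562 of 8770. The 10 richest genes held 12.2% of control lncRNA peaks and 20.1% of control pseudogene peaks. In the other class they held 95.8%, and 435 of its 525 control peaks were in Igh, the immunoglobulin heavy chain locus.

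Away from chromosome 6, pseudogenes were covered by peaks more than lncRNA genes, and both more than protein-coding genes. Coverage here is the share of bases under a peak, and for noncoding genes it counts only bases outside protein-coding genes. Outside chromosome 6, control peaks covered 3.95% of lncRNA bases and deleted-list peaks 4.35%. Pseudogene bases were covered at 6.99% and 8.27%, and the other class at 10.9% and 13.2%. Protein-coding genes were covered at 2.55% and 2.80%, and bases outside any gene at 6.99% and 7.17%. LncRNA genes therefore lay between coding genes and the space between genes, and pseudogenes matched or passed that space.

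With all peaks counted, the deleted list covered more of each noncoding class. The deleted-to-control ratio of covered length was 1.10 for lncRNA genes, 1.18 for pseudogenes, 1.21 for the other class and 1.13 for all noncoding genes. It was 1.10 for protein-coding genes, 1.03 outside genes and 1.05 over all bases. The order reversed among stronger peaks. When both lists were limited to a −log10 q of 2 or more, the ratio was 0.719 for lncRNA genes, 0.786 for pseudogenes, 0.574 for the other class and 0.719 for all noncoding genes, against 0.696 over all bases. At 3 or more it was 0.513 for lncRNA genes and 0.795 for pseudogenes, against 0.672 over all bases. Of the noncoding peaks outside chromosome 6, 1481 control (20.3%) and 1034 deleted-list ones (12.6%) reached a −log10 q of 2, where all peaks gave 18.7% and 11.8%. The deleted list thus held more weak peaks and fewer strong ones in these genes, as over all peaks.

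**Figure D1:**
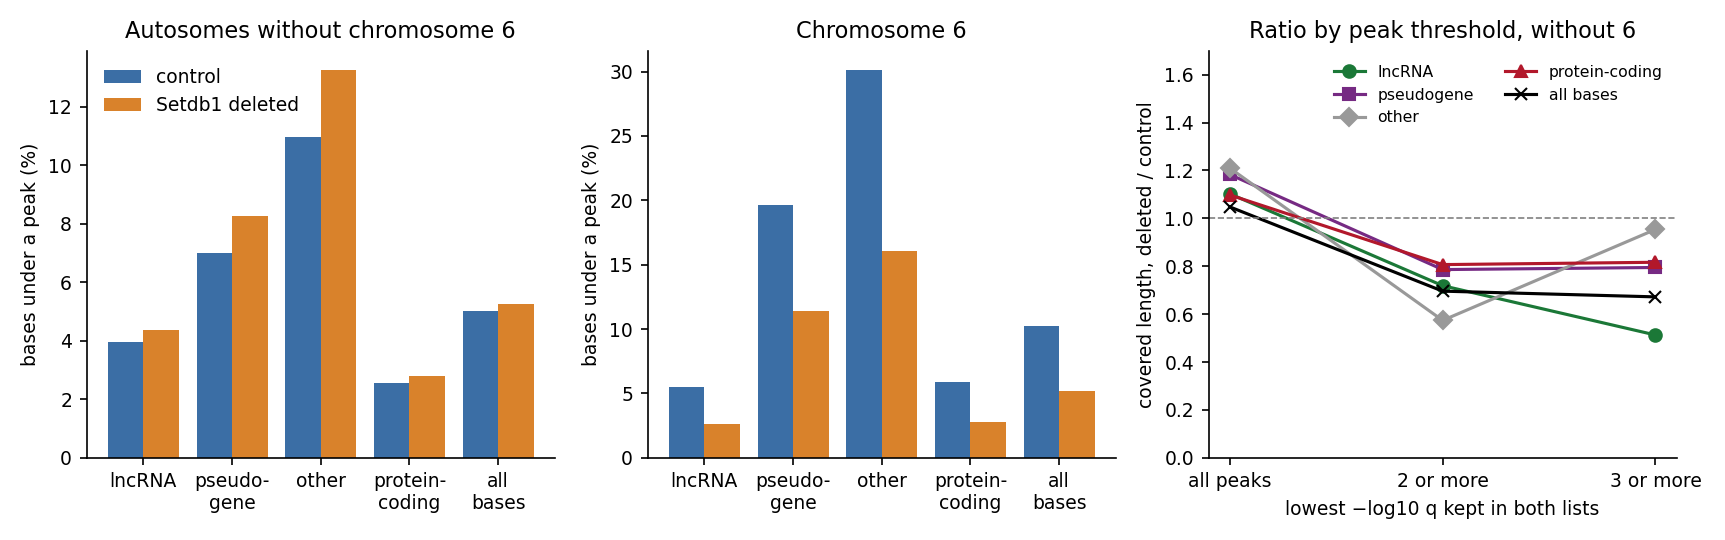
Percent of bases under a peak by gene class in the control (blue) and deleted (orange) list, on autosomes without chromosome 6 (left) and on chromosome 6 (middle), with 1 library per bar. The right panel plots the deleted-to-control ratio of covered length outside chromosome 6 against the lowest −log10 q kept; every class is above 1 with all peaks and below 1 at 2 or more.

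The size of the difference varied by chromosome. Among the 18 autosomes other than 6, the ratio for noncoding genes ran from 0.791 on chromosome 14 to 1.32 on chromosome 5, with a median of 1.13. The deleted list covered more on 15 of the 18, and on 13 the noncoding ratio was above that of the whole chromosome. On chromosome 5 the noncoding ratio of 1.32 stood beside 1.01 for the whole chromosome. Chromosome 14 had 61 and 36 noncoding peaks, covering 0.289% and 0.228% of noncoding bases. The whole chromosome was covered at 0.366% and 0.309%, and no noncoding gene on it differed by 10 points.

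**Figure D2:**
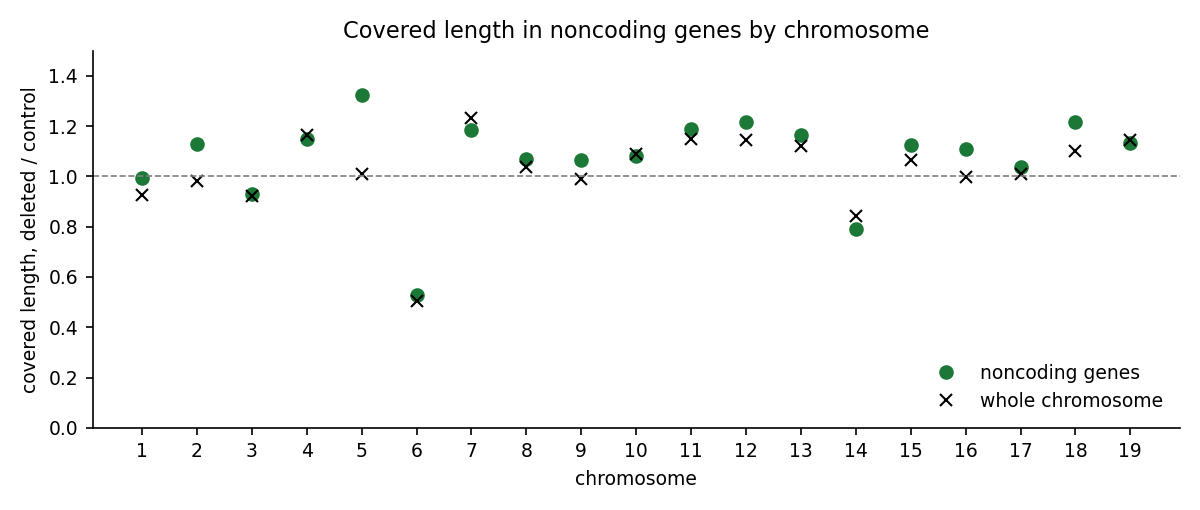
Deleted-to-control ratio of covered length for noncoding genes (circles) and for the whole chromosome (crosses) on chromosomes 1 to 19, with all peaks counted. The noncoding ratio is 0.526 on chromosome 6, and 15 of the other 18 chromosomes are above 1.

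In the control list noncoding peaks lacked a counterpart about as often as all peaks did, and in the deleted list slightly more often. Outside chromosome 6, 46.0% of the control noncoding peaks (44.8 to 47.1%) overlapped no deleted-list peak by at least 1 bp, against 45.7% of all control peaks there. Of the deleted-list noncoding peaks, 52.1% (51 to 53.2%) overlapped no control peak, against 49.6% of all. LncRNA peaks lacked a partner more often than pseudogene peaks, at 48.7% against 37.9% (control) and 54.1% against 46.7% (deleted list). Pseudogene peaks were also wider. Within peaks of 2000 bp or more, 17.3% of control lncRNA peaks (14.7 to 20.2%) and 7.76% of control pseudogene peaks (4.96 to 11.9%) had no partner. In the deleted list these shares were 20.2% (17.6 to 23.1%) and 17.8% (13.6 to 22.9%), intervals that overlap.

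Single genes differed in both directions. Among 14950 noncoding genes outside chromosome 6 with at least 500 bases outside coding genes, 726 (4.86%) were covered by at least 10 percentage points more in the deleted list and 457 (3.06%) by at least 10 points less. Over all 34387 genes of that size, coding genes included, the shares were 3.41% and 2.25%. The median difference was 0 points for noncoding genes and for all genes, since 3822 of the 14950 had a peak base in either list. Of 9028 lncRNA genes, 296 (3.28%) were higher and 166 (1.84%) lower. Of 5722 pseudogenes, 425 (7.43%) were higher and 289 (5.05%) lower. Among pseudogenes of 10000 bases or more, 43 of 438 (9.82%) were higher and 14 (3.20%) lower. Among lncRNA genes of that size 121 of 3948 (3.06%) were higher and 56 (1.42%) lower, and over all 17037 genes of that size 1.91% were higher and 0.851% lower. At a −log10 q of 2 or more, 139 noncoding genes were higher and 209 lower, so the direction of the majority also turned with the threshold. Of 64 genes named by the rule, 30 were covered more in the deleted list with all peaks, and at that threshold 14 of the 30 were covered less and 9 had no difference.

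**Figure D3:**
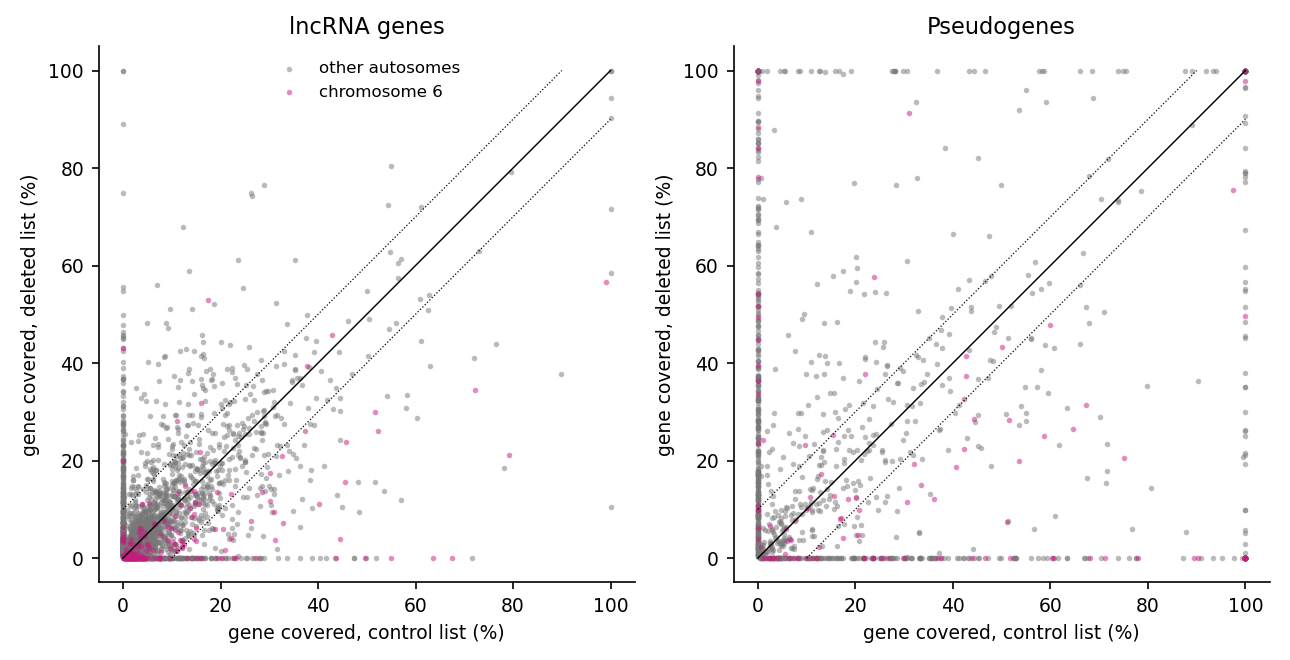
Percent of each gene covered in the control list (x axis) and in the deleted list (y axis), for lncRNA genes (left) and pseudogenes (right) with at least 500 bases outside coding genes and a peak in either list; dotted lines mark a difference of 10 points. Most lncRNA genes lie near the origin, pseudogenes reach 0 and 100% on both axes, and genes of chromosome 6 (pink) lie mostly below the diagonal.

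The lncRNA genes with the most bases under peaks are given first, a count that favours long genes, here of 332426 to 799537 bp. By share, short genes could be covered far more, as Gm12586 above. 1700019L22Rik (chromosome 8, 50117897 to 50917433), 595072 bp from the nearest coding gene, held 101 control and 118 deleted-list peaks and was covered at 19.1% and 17.9%. Gm20754 (chromosome 3, 73066351 to 73594830) was covered at 25% and 19.8%, the largest loss of covered bases among lncRNA genes outside chromosome 6, at -27414 bp. 5730522E02Rik (chromosome 11, 25616846 to 26210576) was covered at 17.7% and 17.9%. These 3 genes kept broad coverage in both lists. Gm27243 on chromosome 4 was covered at 18.5% and 22.1%, and Gm34196 on chromosome 13 at 25.7% and 28.7%.

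The next largest losses of covered bases, again a count that favours long genes, were in 3 further lncRNA genes. 4921515E04Rik (chromosome 15, 18078137 to 18369627) was covered at 18.6% and 11.1%. Gm39296 (chromosome 9, 17181325 to 17356714) was covered at 28.3% and 17.3%. Gm32647 (chromosome 7, 94042496 to 95326426), the longest annotated lncRNA gene at 1283931 bp, was covered at 6.92% and 5.45%. The nearest coding gene to any of the 3 was 449241 bp away, from 4921515E04Rik. At a −log10 q of 2 or more these 3 losses kept their sign but were smaller. The difference went from -7.56 to -3.70 points for 4921515E04Rik, from -11.1 to -0.49 for Gm39296 and from -1.46 to -0.25 for Gm32647. The largest gains of covered bases were in A330093E20Rik, at 12.4% and 20.7%, Gm12381, at 26.6% and 35.3%, LOC105244170, at 14.3% and 27.7%, and Gm33228, at 3.45% and 7.97%. A330093E20Rik and Gm33228 are on chromosome 18, Gm12381 is on chromosome 4 and LOC105244170 on chromosome 11. With peaks at a −log10 q of 2 or more, 3 of these 4 differences changed sign: LOC105244170 went from 13.4 to -1.74 points, A330093E20Rik from 8.35 to -0.99 and Gm12381 from 8.72 to -4.48. That of Gm33228 went from 4.52 to 0.27 points.

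LncRNA genes far from coding genes were covered most. Those over 100 kb from a coding gene were covered at 6.42% (control) and 6.62% (deleted list). LncRNA genes up to 10 kb away were covered at 2.41% and 2.74%, those at 10 to 100 kb at 2.56% and 3.16%, and those overlapping a coding gene at 3.35% and 3.82%, so coverage did not follow distance step by step. The deleted-to-control ratio was 1.03 in the farthest group and between 1.14 and 1.23 in the others. Pseudogenes over 100 kb away were covered at 8.14% and 9.14%, and those up to 10 kb away at 4.91% and 6.54%. The mean per pseudogene ran the other way, at 4.33% over 100 kb away and 5.74% up to 10 kb away in the control list.

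Outside chromosome 6, lncRNA genes were covered more than the 20 kb on either side of them and pseudogenes less. On chromosome 6 lncRNA genes were about level with their flanks, and pseudogenes were covered more than theirs. Outside coding genes and chromosome 6, lncRNA genes were covered at 3.92% and their flanks at 3.04% in the control list, and at 4.32% and 3.49% in the deleted list. Pseudogenes were covered at 6.98% with flanks at 8.34% in the control list, and at 8.25% with flanks at 8.91% in the deleted list. On chromosome 6, lncRNA genes were covered at 5.39% with flanks at 5.45% (control), and at 2.56% with flanks at 2.80% (deleted list). Pseudogenes there were covered at 19.6% with flanks at 14.3%, and at 11.4% with flanks at 7.03%.

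The 3 lncRNA peaks of highest fold per list outside chromosome 6 included peaks with and without a partner in the other list. Of all lncRNA peaks there, 48.7% (control) and 54.1% (deleted list) had none. By the authors' fold, the control list was led by a 621-bp peak in Gm30446 (chromosome 1, 190050060 to 190050680; fold 4.46, −log10 q 6.61), which overlapped a deleted-list peak. The control peak in Gm36153 (fold 3.93) had no partner, and that in Gm42004 (fold 3.87) had. In the deleted list a 642-bp peak in Gm41257 (chromosome 15, 5298110 to 5298751; fold 4.50, −log10 q 6.04) had no control partner. The deleted-list peaks in Gm13165 (fold 4.38, −log10 q 12.1) and Gm46036 (fold 4.27) had one each.

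Receptor pseudogenes were the most covered families. Outside chromosome 6, the 302 olfactory receptor pseudogenes were covered at 20.3% (control) and 18.9% (deleted list). The 106 pseudogenes of Vmn1r, vomeronasal type 1 pheromone receptors, were covered at 16.8% and 17.7%. The 119 of Vmn2r, the type 2 receptors, were covered at 16.4% and 18.2%. All 3 families stood above the 6.99% and 8.27% of pseudogenes as a class, and their overall coverage differed little between the lists. The 15 zinc finger pseudogenes, relics of DNA-binding repressor genes, were covered at 10.4% and 12.0%, but only 2 of them had a peak base in each list, and Zfp813-ps held most of the covered bases (8671 and 9888 bp). The 198 ribosomal protein pseudogenes, most of them processed copies scattered over the genome, were covered at 7.19% and 7.39%, with a peak base in 9 and 16 of them and 8585 and 6596 bp in Rpl31-ps25 alone.

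Receptor pseudogenes with more and with less coverage in the deleted list were similar in number. Of 245 olfactory receptor pseudogenes of at least 500 bases, 48 were higher by 10 points in the deleted list and 49 lower. The counts were 15 and 17 of 78 for Vmn1r, and 20 and 15 of 101 for Vmn2r. For ribosomal protein pseudogenes 7 were higher and 4 lower of 141. In the receptor families both shares were above the 7.43% and 5.05% of all pseudogenes. At a −log10 q of 2 or more, olfactory receptor pseudogenes were covered at 7.55% (control) and 1.04% (deleted list), Vmn2r pseudogenes at 6.59% and 4.66%, and Vmn1r pseudogenes at 4.11% and 3.45%. Ribosomal protein pseudogenes were covered at 6.30% and 1.25% at that threshold, and zinc finger pseudogenes at 6.23% and 0.329%. All pseudogenes outside chromosome 6 were covered at 2.49% and 1.96% at that threshold. Strong peaks were thus mostly in the control list in the olfactory receptor family, while its coverage by all peaks was similar in both lists. In the ribosomal protein and zinc finger families few genes had a peak base, and Rpl31-ps25 and Zfp813-ps held the most covered bases. Those values therefore need not describe the family.

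**Figure D4:**
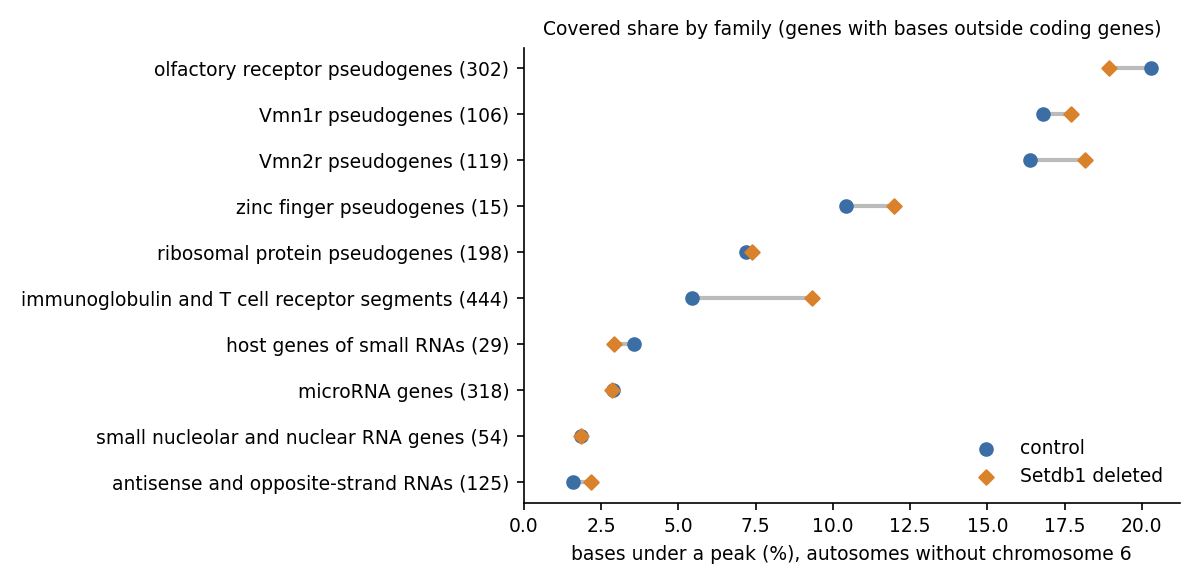
Percent of bases under a peak for 10 families of noncoding genes outside chromosome 6, in the control (circles) and deleted (diamonds) list with all peaks counted; the number of genes is in parentheses. Receptor pseudogenes lie between 16.4 and 20.3%, and small RNA and antisense genes below 4%.

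Examples showed the range. Vmn2r-ps16 (chromosome 4, 146445134 to 146605510) was covered at 89.1% and 88.8% of the 36455 bases outside coding genes, nearly the same in both lists. Vmn2r-ps120 (chromosome 17, 19279323 to 19304647) was covered at 59.4% and 33.9%. Vmn2r-ps117 on the same chromosome was covered at 53.5% and 27.3%, and Vmn2r-ps126 there at 37.1% and 26.2%. These 3 pseudogenes lie between 18822560 and 20141411 on chromosome 17. At a −log10 q of 2 or more the difference went from -25.5 to -0.60 points for Vmn2r-ps120 and from -10.9 to 2.48 for Vmn2r-ps126. For Vmn2r-ps117 it went from -26.3 to -29.2 points. At 3 or more all 3 were at 0. With peaks joined within 5 kb, Vmn2r-ps117 and Vmn2r-ps120 were at 0 and Vmn2r-ps126 at -24.9 points. Vmn2r-ps23 (chromosome 5, 109578022 to 109731447) was covered at 13.4% and 26.0%. A 477-bp control peak in Vmn2r-ps17 on chromosome 4 had the highest fold of any noncoding peak of that list, at 4.82, and its partner had a fold of 3.77, the highest for pseudogenes in the deleted list.

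Short receptor pseudogenes could be covered in either list alone. Olfr192 on chromosome 16 was covered at 70.4% by control peaks and by none of the deleted list. Olfr712-ps1 on chromosome 7 was covered at 12.4% and 100%. Vmn1r-ps48 on chromosome 7 and Vmn1r-ps100 on chromosome 13 were covered wholly in the control list alone, and Vmn1r-ps58 on chromosome 7 wholly in the deleted list alone. Vmn1r-ps112 on chromosome 13 lay wholly under a peak in both.

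Pseudogenes outside these families also led the class. Gm18728 (chromosome 1, 102971589 to 103401075), the longest pseudogene at 429487 bp, held 65 and 73 peaks and was covered at 22.4% and 22.0%. Gm3116, on the same chromosome, was covered at 23.0% and 16.5%, and Gm7240 on chromosome 13 at 39.2% and 45.9%. Gm12813 (chromosome 4, 113368193 to 113394502) was covered at 20.2% and 56.6%, Gm12077 on chromosome 11 at 24.1% and 40.1%, and Gm18795 on chromosome 12 at 26.5% and 39.6%. Gm18795 is annotated at 65535 bp, a length that 6 noncoding gene models share exactly, all of them pseudogenes, so its limits may not be those of a single gene copy. At a −log10 q of 2 or more its difference was -0.41 points.

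In the remaining class the antigen receptor loci, silent outside lymphocytes, held nearly all peaks. Igh (chromosome 12, 113258768 to 116009954) was covered at 23.1% and 27.9%, with 435 and 474 peaks, and Igl, the lambda light chain locus on chromosome 16, at 13.2% and 19.3%. With peaks at a −log10 q of 2 or more both differences changed sign, from 4.79 to -3.05 points for Igh and from 6.07 to -2.20 for Igl. Tcrg, the T cell receptor gamma locus on chromosome 13, was covered at 6.68% and 6.26%. Among miscellaneous RNAs, Platr25 on chromosome 13 was covered at 20.1% and 22.5%, 3110053B16Rik on chromosome 12 at 41.0% and 47.3%, and 2810408B13Rik on chromosome 13 at 51.3% and 43.2%. The direction in these 3 genes depended on the setting. With a threshold of 2 the differences were 8.45, 36.2 and -40.1 points, in the same order. With a threshold of 3 they were -1.54, -1.88 and 11.2 points, and with peaks joined within 5 kb 5.18, 11.7 and 43.1. Gm52537 (chromosome 2, 170608699 to 170612558) had no control peak and was covered at 71.0% in the deleted list, by a peak below a −log10 q of 2. Gm40003 (170671103 to 170673838), whose start is shown above, lies on the same chromosome and also had a peak in the deleted list alone.

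On chromosome 6 noncoding genes, like the whole chromosome, were covered more than elsewhere in the control list, and less in the deleted list than in the control. Control peaks covered 10.2% of the whole chromosome, against 5.02% of the other autosomes, and 5.86% of its protein-coding genes, against 2.55%. The control list held 1212 noncoding peaks there, 12.1% of its peaks on the chromosome (11.46 to 12.7%), and the deleted list 928 (12.9%, 12.1 to 13.6%). Noncoding genes outside coding genes span 9.54% of the chromosome. LncRNA genes were covered at 5.52% and 2.63%, pseudogenes at 19.6% and 11.4%, and the other class at 30.1% and 16.1%. Protein-coding genes there were covered at 5.86% and 2.80%, slightly more than lncRNA genes, unlike on the other autosomes. The deleted-to-control ratios were 0.476 for lncRNA genes, 0.582 for pseudogenes and 0.533 for the other class. They were 0.477 for protein-coding genes and 0.504 for the whole chromosome. The lower coverage was therefore of the size seen over the whole chromosome, and at a −log10 q of 2 or more the noncoding ratio was 0.192 beside 0.211.

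More of the control peaks in noncoding genes found a partner than of chromosome 6 as a whole. Without a partner were 48.2% of control noncoding peaks (45.4 to 51%), against 55.3% of all control peaks of the chromosome, and 27.5% of deleted-list noncoding peaks (24.7 to 30.4%), against 33.3% of all. By class, 60.7% of control lncRNA peaks (55.8 to 65.3%) and 34.4% of deleted-list ones (28.7 to 40.6%) had none. The shares were 45.2% and 27.8% for pseudogenes, and 41.1% and 24.2% for the other class. Of 1010 noncoding genes tested, 114 (11.3%) were lower by 10 points or more and 35 (3.47%) higher, against 9.33% and 2.30% of all genes there. Igk, the kappa light chain locus (67555636 to 70726754), alone held 590 and 510 of the noncoding peaks and was covered at 35.9% and 19.2%. The lncRNA genes with the largest losses of covered bases were Gm36408, at 31.0% and 9.46%, Gm35822, at 31.2% and 3.62%, and Gm5570, at 30.1% and 11.8%. Among pseudogenes Vmn2r-ps33 was covered at 58.6% and 25%, Gm18912, whose model is also 65535 bp long, at 51.6% and 28.2%, and Gm43979 at 33.5% and 15.0%. A few genes went the other way: Gm52914, a lncRNA gene, was covered at 11.1% and 28.1%, and the pseudogene Gm8744 (10882438 to 10888602), at 23.9% and 57.7%. At a −log10 q of 2 or more the difference was -5.35 points for Gm52914 and 0.13 for Gm43979, so both changed sign.

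Widely studied lncRNAs had a peak about as often as lncRNA genes in general, but less of their length was covered. Pooled over chromosomes 1 to 19, the listed genes were covered at 1.60% (control) and 1.73% (deleted list), against 4.03% and 4.26% of all lncRNA bases. Of 51 names listed, 40 had bases outside coding genes, and 27 of these (67.5%) had no peak base in either list, against 70.7% of the 9552 lncRNA genes of chromosomes 1 to 19 with at least 500 bases outside coding genes. Among the 27 were Neat1 and Malat1, abundant nuclear RNAs, Gas5 and Snhg1, hosts of small nucleolar RNAs, Hotair and Hottip of the Hox clusters, Norad, Tug1, Miat and Mir22hg. A peak base was present in 11 in the control list, in 11 in the deleted list and in 9 in both.

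None of the 40 was lower by 10 points and 3 (7.50%) were higher, where 2.14% of all lncRNA genes were lower and 3.15% higher. Hand2os1, transcribed beside the heart and limb factor gene Hand2 (chromosome 8, 57304261 to 57320859), was covered at 9.26% and 24.3%. Panct2, a transcript linked to pluripotency (chromosome 1, 96871126 to 96881234), was covered at 6.14% and 18.3%. Six3os1, beside the eye and forebrain factor gene Six3 (chromosome 17, 85601932 to 85618396), had no control peak and was covered at 14% in the deleted list. With peaks at a −log10 q of 2 or more the difference was -1.99 points for Hand2os1 and -6.14 for Panct2, and Six3os1 had no covered base in either list, so none of the 3 stayed higher. Sox2ot, which spans Sox2, was covered at 4.29% and 3.82%, Pax6os1 at 5.45% and 7.82%, Pantr1 at 6.86% and 6.24%, Dlx6os1 at 4.57% and 4.48%, and Emx2os at 3.45% and 2.36%. The microRNA hosts Mir99ahg and Mir100hg were covered at 1.53% and 0.282%, and at 1.46% and 0.847%. Fendrr and Morrbid had 1 peak each in the control list alone, and Pvt1, beside Myc, had 1 in the deleted list alone.

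Pooled, imprinted noncoding RNAs were covered slightly above lncRNA genes as a class, but most of their covered bases were in Snhg14. Over chromosomes 1 to 19 the listed genes were covered at 5.04% and 4.70%, against 4.03% and 4.26% of all lncRNA bases. Of 22 names listed, 10 had bases outside coding genes. A peak base was present in 6 of the 10 (60.0%, against 29.3% of 9552 lncRNA genes of at least 500 bases), 3 in both lists and 3 in the deleted list alone. Long genes had one more often: 2011 of 3948 lncRNA genes of 10000 bases or more outside chromosome 6. Of the 6, all but Igf2os had over 10000 bases outside coding genes, as did Meg3 and Nctc1, which had no peak base. Whether the higher share goes beyond gene length was not tested. Snhg14, the long host of small nucleolar RNAs at the Prader-Willi locus (chromosome 7, 59272737 to 60450177), was covered at 5.88% and 5.14%. It held 39504 and 34555 covered bp, and Airn, next by covered bases, 4044 and 3659. Airn, which silences Igf2r in cis (chromosome 17, 12741311 to 12859884), was covered at 5.85% and 5.29%, and A330076H08Rik on chromosome 7 at 4.33% and 7.03%. H19, Meg3, Nctc1 and Zfas1 had no peak base in either list, and Rian, Mirg and Igf2os were covered below the class in both. In the Dlk1-Dio3 domain of chromosome 12, 1 deleted-list peak covered 683 bp of Rian and 1 covered 537 bp of Mirg, hosts of small RNAs, and Igf2os had 51 bp. None of the 10 differed by 10 points.

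MicroRNA genes were covered less than noncoding genes as a class. Outside chromosome 6 and outside coding genes, 318 microRNA genes were covered at 2.89% (control) and 2.86% (deleted list), against 4.56% and 5.13% of noncoding bases. A peak base was present in 9 of them in each list. Of 919 hairpins with a RefSeq sequence, 301 lay outside coding genes, and 17 of the 919 were touched by a peak in either list: 6 in the control list alone, 8 in the deleted list alone and 3 in both. For 6 of the 17 that peak had its midpoint in a noncoding gene, and these rested on 4 peaks, all in the deleted list. They were Mir341 and Mir1188 under the Rian peak, Mir369 and Mir410 under the Mirg peak, Mir344d-2 on chromosome 7 (61685272 to 61685351) and Mir7094-1 in Igh. These peaks were weak, with a −log10 q of 1.16 for the peaks in Rian and Mirg, 1.40 for Mir344d-2 and 1.66 for Mir7094-1, so none reached 2. Mature sequences of 5 of the hairpins are shown, 1 arm each, with the seed (bases 2 to 8) in capitals and the 2 that share a seed first.
miR-344d-3p: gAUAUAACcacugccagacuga
miR-410-3p: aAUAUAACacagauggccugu
miR-369-3p: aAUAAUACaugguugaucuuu
miR-341-3p: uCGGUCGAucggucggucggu
miR-1188-5p: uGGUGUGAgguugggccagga
The seed AUAUAAC was common to miR-344d-3p and miR-410-3p, which come from hairpins on chromosomes 7 and 12. The others each had a seed of their own among these 5.

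Coverage dipped at lncRNA starts in both lists. Over 10609 distinct lncRNA starts outside chromosome 6, control peaks covered 1.43% and deleted-list peaks 1.99% of bases outside coding genes in the 500 bp after the start. At 9500 to 10000 bp before the start the values were 2.91% and 3.25%, and at that distance after it 2.92% and 3.09%. The dip was present at protein-coding starts too, at 1.24% and 1.35% in the first 500 bp of 18899 starts, where the 2 lists lay closer together than at lncRNA starts.

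**Figure D5:**
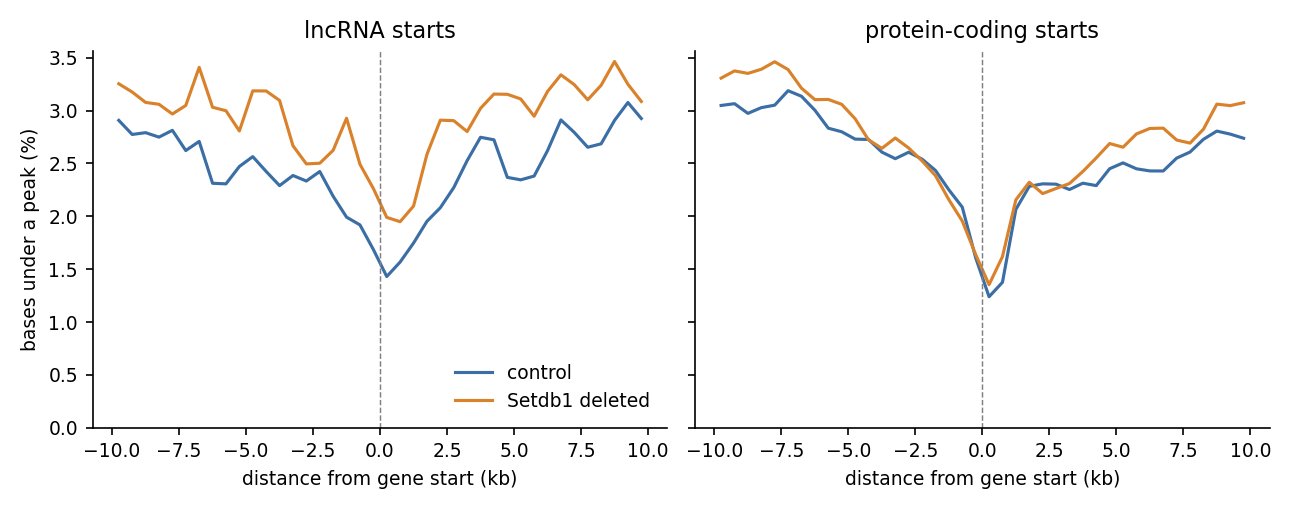
Percent of bases under a peak in 500-bp bins from 10 kb before to 10 kb after annotated starts of lncRNA genes (left; bases outside coding genes) and of protein-coding genes (right), outside chromosome 6, with all peaks counted. The lncRNA curves are lowest just after the start, at 1.43% (control) and 1.95% (deleted list).

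More lncRNA start windows had a peak in the deleted list alone than in the control list alone. RefSeq windows were found for 9291 of the 12408 lncRNA genes, and 6916 of the windows lay outside chromosome 6 and outside coding genes. Of these, 59 (0.853%) touched a peak in both lists, 80 (1.16%) in the control list alone and 138 (2.00%) in the deleted list alone. Over all start windows, coding ones included, 1.06% touched a peak in the control list alone and 1.37% in the deleted list alone. At a −log10 q of 2 or more the counts were 16 and 19, so the excess was carried by weaker peaks.

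Start windows under peaks held fewer CG dinucleotides. The 277 lncRNA windows outside coding genes with a peak in either list had a median GC content of 42.7% and 2 CG, and 20.9% of them held none. The 6639 with no peak had a median of 47.3% and 3 CG, and 7.62% held none, against 8.155% of all 6916 windows. Windows with a peak in the deleted list alone had a median GC content of 44.7%, against 40.7% for those in the control list alone and for those in both. Protein-coding windows with a peak had a median of 36.7% GC and 1 CG, against 57.3% and 14 in those without. The search counted the letters CG on either strand, which are the same sites, and base composition also differs between regions of the genome.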

How the data were processed

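H3K9me3 was measured by native chromatin immunoprecipitation in 1 control and 1 Setdb1-deleted culture; neither input library was analysed here. The submitters' processing notes name BWA 0.7.17-r1188, MACS2 and ChIPseeker 1.30.3, with mm10 as the build. Settings, use of the inputs and pooling are not given in the sources used here. The deposited broad peak lists give, per the authors, a fold enrichment (a linear ratio), a −log10 p-value, a −log10 q-value and a display score for each peak. Every −log10 q was above 1. The peak names carry another replicate number than the labels, so lists were assigned by condition.

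Genes came from RefSeq GRCm38.p6. Immunoglobulin and T cell receptor segments were put in the other class, and a peak in several noncoding genes went to the shortest. Coverage was computed with Python 3.11.15, numpy 2.4.6, pandas 2.3.3 and scipy 1.17.1, figures with matplotlib 3.10.9, and the interval code was tested on simulated data. Named genes were, per class outside chromosome 6, the 5 most covered and the 4 largest falls and rises in covered bases, on chromosome 6 the 3 largest falls and 1 rise, plus the 2 gene lists, examples from families defined by symbol, and the 3 peaks of highest fold per list and class. The members, lists and rules were chosen with earlier results of these data known. Alternatives changed the q threshold, list size, peak joining, overlap rule, gene set and chromosomes. Repeats were not analysed, since no genome sequence was used.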

Additional observations from a re-analysis of the deposited data

How the results depend on the processing

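With 1 library per condition no replicate could be left out. No paired analysis was possible because neither condition was represented by more than 1 library. Main values were shares of 8.25% and 8.42% in noncoding genes (control, deleted list), 46.3% and 49.6% without a partner (46.7% and 48.5% of all peaks on chromosomes 1 to 19), log2 covered-length ratios of 0.17 outside chromosome 6 and -0.93 on it, and 457 genes lower and 726 higher by 10 points. At a −log10 q of 2 or more the shares were 8.89% and 8.71%, those without a partner 79.9% and 68.7%, the log2 ratios -0.48 (reversed) and -2.38, and the genes 209 and 139. At 3 or more these values were 9.98% and 8.25%, 85.9% and 71.1%, -0.68 (reversed) and -3.84, and 36 and 14; limiting both lists also removes partners. Start windows with a peak in 1 list alone numbered 16 and 19 at 2 or more, against 80 and 138. With equal list sizes the control share without a partner was 47.9%. With peaks joined within 5 kb the shares were 8.73% and 9.06%, without a partner 38.1% and 40.6%, and the log2 ratio on chromosome 6 -0.73. Without predicted genes the values were 1.69% and 1.63%, 38.8% and 38.3%, and 111 and 153 genes. Membership by any overlap gave 8.82% and 9.08%, and 45.2% of control peaks without a partner. A 50% overlap left 66.9% and 68.9% without a partner, and a partner within 5 kb left 16.7% and 19.2%. A change of 20 points was met by 273 and 420 genes. Without the antigen receptor loci, chosen after seeing the data as were the start-window alternatives, the shares were 7.17% and 7.45%, and 47.6% and 51.8% had no partner.

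Of 24 named genes that differed by at least 10 points, 24 did so in the same direction with equal list sizes, 19 with joined peaks, 6 at a −log10 q of at least 2, and 0 at the threshold of 3, where 21 were at 0 points. Over all 64 named genes 18 changed sign at 2 or more. Among the 24, 7 did: Gm18795 (-0.41 points), Gm43979 (0.13), Gm52914 (-5.35), Hand2os1 (-1.99), LOC105244170 (-1.74), Panct2 (-6.14) and Vmn2r-ps126 (2.48). The cause of the reversals was not tested. Leaving out chromosome 14 kept each share, ratio and gene count within its error or within 1.5 times. Depth is unknown and limits every comparison of weak peaks.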
